A study of Mus musculus with 4 samples.

Results

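Sterol handling was described across 32 genes of mouse CD8+ T cells exposed to sodium butyrate (NaBu). The genes were taken by symbol from a list of enzymes of sterol synthesis, regulators of the SREBP2 pathway, sterol carriers and storage enzymes, and genes of sterol efflux and the LXR receptors. All 32 were found, of 17559 genes in the files, and all had a value in each library and passed the filter on low counts. They comprised 19 synthesis enzymes, 4 genes of SREBP2 control, 4 of carriage and storage, and 5 of the LXR and efflux side (*Abca1*, *Abcg1*, *Nr1h2*, *Nr1h3* and *Mylip*). RNA-seq was performed on 2 NaBu libraries, from cells held in 1 mM NaBu for 12 h, and 2 libraries labelled control from cells of the same culture scheme. All cells were OT-I CD8+ T cells of C57BL/6 mice, whose transgenic T cell receptor recognises an ovalbumin peptide, from tissue labelled LN. They were selected magnetically to purities above 95% and stimulated with anti-CD3 at 1 µg/ml and anti-CD28 at 2 µg/ml in IL-2 at 10 ng/ml for 2 d. A further 2 d in IL-2 alone preceded the exposure. The labels name no separate cultures or animals behind the replicates. The p-values therefore cover the spread among these libraries alone, and that spread may be technical.

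Cells make cholesterol from acetyl-CoA through mevalonate, farnesyl diphosphate, squalene and lanosterol. When sterol in the endoplasmic reticulum is low, SCAP carries the transcription factor SREBP2 to the Golgi for cleavage, and SREBP2 then raises the genes of synthesis and uptake. INSIG proteins hold SCAP back when sterol is plentiful. The LXR nuclear receptors answer to oxysterols and raise the efflux pumps ABCA1 and ABCG1 and the ubiquitin ligase MYLIP, which removes lipoprotein receptors. Activated T cells are known to raise sterol synthesis as they grow and divide.

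Expected counts summed to 19859649 and 19857701 in the NaBu libraries and to 20344399 and 20548571 in the control libraries. Levels are given as FPKM, fragments scaled to transcript length and library total, and fold changes as log2 of NaBu over control on the TMM scale of edgeR. Called genes had a Benjamini-Hochberg adjusted p under 0.05 by edgeR's quasi-likelihood test over 12943 genes. By that rule 68.6% of all tested genes were called, 34.1% lower and 34.5% higher in NaBu, with a median log2 fold change of 0.005. Of 8 markers of CD8 T cells, all were present in each library, with a summed FPKM of 1436 and 1437 in NaBu, against 1565 and 1528 in control, and 6 were lower and 1 higher in NaBu. On library totals that median over all genes moved to 0.10, so directions here are relative to the TMM scale. Across genes, the fold change was higher for transcripts of higher GC content (Spearman's rho of 0.175 over the 95.8% of tested genes with a value, a description only). Fold changes of members that lost their call or moved by more than 1.5 times without this GC trend are named with both values. Fewer cells of a type and less RNA per cell cannot be told apart in such bulk samples.

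The promoter windows of 4 genes with large falls and of the efflux pump *Abca1* are shown because SREBP2 and its partner NF-Y are known to bind close to the start of sterol genes. Each runs from 250 bases before to 50 after the annotated start, 5′ to 3′ on the gene's strand, from RefSeq on GRCm38.p6, the assembly also called mm10. Capitals mark matches to TCACNCCAC or its shorter form CACNCCAC, the sterol regulatory element, and to CCAAT, the NF-Y box, on either strand. The windows lie at chr13:119690101-119690400 (*Hmgcs1*, plus strand), chr5:28071162-28071461 (*Insig1*, plus), chr13:8885356-8885655 (*Idi1*, plus), chr5:4104648-4104947 (*Cyp51*, minus) and chr4:53159846-53160145 (*Abca1*, minus).
Hmgcs1: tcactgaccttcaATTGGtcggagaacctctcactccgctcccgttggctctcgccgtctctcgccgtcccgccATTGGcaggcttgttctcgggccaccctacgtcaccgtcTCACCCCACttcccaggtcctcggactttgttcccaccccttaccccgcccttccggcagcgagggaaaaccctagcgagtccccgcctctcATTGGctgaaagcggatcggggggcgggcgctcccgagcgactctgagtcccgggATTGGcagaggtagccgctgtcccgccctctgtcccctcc
Insig1: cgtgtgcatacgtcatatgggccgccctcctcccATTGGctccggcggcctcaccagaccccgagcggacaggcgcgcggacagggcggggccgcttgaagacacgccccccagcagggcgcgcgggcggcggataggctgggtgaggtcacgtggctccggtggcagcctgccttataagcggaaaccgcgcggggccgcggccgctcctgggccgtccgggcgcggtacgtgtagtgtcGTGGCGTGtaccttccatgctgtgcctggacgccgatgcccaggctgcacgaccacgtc
Idi1: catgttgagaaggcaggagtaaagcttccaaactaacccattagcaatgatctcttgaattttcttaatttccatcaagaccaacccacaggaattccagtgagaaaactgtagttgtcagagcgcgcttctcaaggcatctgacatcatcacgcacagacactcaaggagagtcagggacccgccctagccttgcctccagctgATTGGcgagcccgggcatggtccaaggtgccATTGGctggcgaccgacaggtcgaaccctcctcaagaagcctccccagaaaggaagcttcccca
Cyp51: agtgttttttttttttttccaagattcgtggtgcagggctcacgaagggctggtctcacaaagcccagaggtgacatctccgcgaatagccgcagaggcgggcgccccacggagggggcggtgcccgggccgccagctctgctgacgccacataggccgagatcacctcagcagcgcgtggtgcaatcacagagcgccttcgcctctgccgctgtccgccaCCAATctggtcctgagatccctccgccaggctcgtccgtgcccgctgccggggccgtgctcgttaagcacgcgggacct
Abca1: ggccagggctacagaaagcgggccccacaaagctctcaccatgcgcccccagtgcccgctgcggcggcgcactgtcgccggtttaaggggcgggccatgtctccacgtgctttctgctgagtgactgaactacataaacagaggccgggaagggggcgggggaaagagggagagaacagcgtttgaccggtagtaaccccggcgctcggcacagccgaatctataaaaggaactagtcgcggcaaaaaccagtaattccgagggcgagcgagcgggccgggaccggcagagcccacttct

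*Hmgcs1* held the full element 137 bases before its start, and *Insig1* held the shorter form on the other strand, beginning 9 bases before its start. The shorter form, whose letters lie inside the full one, was added after the full form had been searched. Windows were matched for 26 members, which leaves out *Stard4*, *Abcg1*, *Sqle*, *Fdps*, *Fdft1* and *Npc1*. Of the 26, 1 held the full form and 3 the shorter one (*Acat2*, *Hmgcs1* and *Insig1*), against 1.44% and 7.12% of all genes with a window. There were 27025 such genes, more than the 12943 tested, whereas all members were tested. A CCAAT box stood in 21 of the 26, against 41.1% of all genes, and in 15 of the 16 synthesis enzymes with a window. It was found among members that were lower in NaBu (13 of 14) and among members that were higher (6 of 7), and in 1 of 4 on the LXR and efflux side. The direct repeat read by LXR, AGGTCA and a further AGGTCA spaced by 4 bases, matched no member window and 0.0148% of all genes, and the form with AGTTCA as its downstream copy matched none. A match is a description of these letters and not of binding. Only these exact letters were searched and the LXR repeats are rare in any window. Their absence therefore does not show that a window lacks an LXR site.

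Of the 32 members, 18 were lower and 9 higher in NaBu, and the other 5 missed the threshold, where 34.1% of all tested genes were lower and 34.5% higher. Their median log2 fold change was -0.36. The 27 genes of the synthesis, control, carriage and storage side held all 18 falls, with 6 rises and a median of -0.43. The 5 LXR and efflux genes held no fall and 3 rises, with a median of 0.46. Removal of the GC trend gave them 1 fall and 3 rises. Against a fold of 1.5 as the null (edgeR's glmTreat), which 29.2% of all tested genes passed, 12.1% lower and 17.1% higher, 6 members were lower (*Insig1*, *Idi1*, *Stard4*, *Hmgcs1*, *Cyp51* and *Ebp*) and 2 higher (*Abcg1* and *Npc2*). In FPKM, 18 members lay lower in both NaBu libraries than in either control and 11 higher. The shares of all tested genes were 35.9% and 48%, or 84% in either direction.

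**Figure D1:**
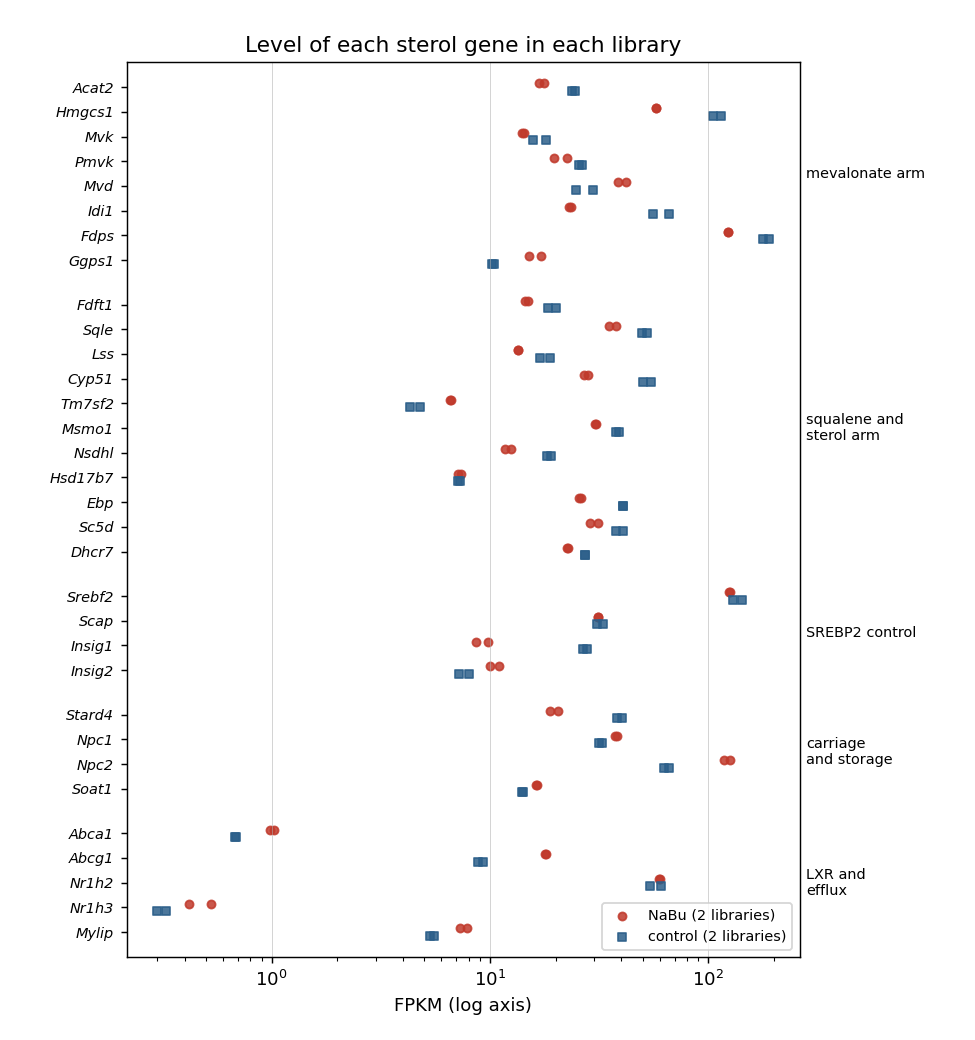
FPKM of each member (log axis) in the 2 NaBu libraries (circles, upper) and the 2 control libraries (squares, lower), by role. *Insig1* sits at 8.65 and 9.76 in NaBu, left of 26.6 and 27.8 in control, while *Npc2* and *Abcg1* sit to the right of their controls.

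Of the 8 enzymes of the mevalonate arm, 6 were lower and 2 higher in NaBu, against 34.1% and 34.5% of all tested genes. *Hmgcs1* (gene 208715, mm10 chromosome 13, 119690351 to 119708260), which makes HMG-CoA from acetyl-CoA units, had an FPKM of 57.3 and 57.7 in NaBu, against 105 and 115 in control. The NaBu libraries lay far below both controls and the groups did not overlap. On the log2 scale the change was -1.03 ± 0.07 (SE, edgeR adjusted p = 2.79e-07). *Idi1* (gene 319554, chromosome 13, 8885606 to 8892396), the isomerase that yields the allylic unit for chain growth, had an FPKM of 23.49 and 22.95 in NaBu, against 55.6 and 66.1 in control. It fell 2.8-fold, more than any other enzyme, or -1.49 ± 0.08 in log2 (SE, edgeR adjusted p = 1e-07).

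*Fdps*, which builds farnesyl diphosphate and was the most abundant enzyme per length, had an FPKM of 123 and 123 in NaBu, against 189 and 178 in control. It fell 1.6-fold but was not shown to exceed the fold of 1.5 (glmTreat adjusted p = 0.0819). *Acat2*, the cytosolic thiolase at the head of the pathway, averaged 17.3 ± 0.62 FPKM in NaBu and 24.1 ± 0.62 in control (SD, n = 2 in each group), a log2 fold change of -0.58. Its expected counts were not whole numbers in any library, as RSEM gives where reads are divided between transcripts. Only 1 transcript is listed for *Acat2*, so the division was not among its own listed transcripts. In all, 11 members had such counts in at least 1 library. The kinases *Mvk* and *Pmvk* fell less, with log2 fold changes of -0.35 and -0.40, or -0.58 and -0.69 with the GC trend removed. Their calls were lost without NaBu 2 for *Mvk* (edgeR adjusted p = 0.0636) and without NaBu 1 for *Pmvk* (adjusted p = 0.0608). Both were also lost with limma on log2(FPKM + 1) without a filter (adjusted p = 0.0884 and 0.0609), which left 4 of the 8 enzymes lower.

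*Mvd* and *Ggps1* went the other way. *Mvd*, the decarboxylase that makes isopentenyl diphosphate, had an FPKM of 38.7 and 42.1 in NaBu, against 29.6 and 24.7 in control. Its log2 fold change of 0.48 ± 0.09 (SE, edgeR adjusted p = 0.000714) dropped to 0.04 (adjusted p = 0.59) with the GC trend removed, and its transcript has a GC content of 59.0%, against a median of 49.9% over tested genes. *Ggps1*, which takes farnesyl diphosphate to the geranylgeranyl unit used on proteins, had an FPKM of 17.2 and 15.1 in NaBu, against 10.4 and 10.2 in control. The rise was 0.55 ± 0.09 in log2 (SE, edgeR adjusted p = 0.000233), and it came to 0.87 with the GC trend removed. The FPKM of *Fdps* relative to that of *Ggps1* was 7.17 and 8.15 in NaBu, against 18.2 and 17.4 in control. That of *Idi1* relative to *Mvd*, the enzyme whose product it uses, was 0.607 and 0.544 in NaBu, against 1.88 and 2.68 in control.

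Of the 11 enzymes from squalene onwards, 9 were lower, 1 was higher and 1 did not pass. The shares of all tested genes were 34.1% lower and 34.5% higher. *Cyp51* (gene 13121, chromosome 5, 4080674 to 4104697), which demethylates lanosterol, had an FPKM of 26.8 and 28.2 in NaBu, against 50.2 and 54.4 in control. The 2.03-fold fall was -1.02 ± 0.07 in log2 (SE, edgeR adjusted p = 2.74e-07). *Ebp*, a sterol isomerase, had an FPKM of 25.61 and 26.24 in NaBu, against 40.85 and 40.81 in control, and fell 1.68-fold. *Nsdhl*, a dehydrogenase that helps remove a methyl group, fell 1.65-fold and *Sqle*, the squalene epoxidase, 1.5-fold. Neither was shown to exceed the fold of 1.5 (glmTreat adjusted p = 0.0607 and 0.598).

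The other falls in this arm were smaller. *Lss*, the lanosterol synthase, averaged 13.5 ± 0.035 FPKM in NaBu and 17.9 ± 1.41 in control. *Sc5d*, a desaturase, fell with a log2 fold change of -0.49 and *Msmo1*, the methylsterol oxidase, with -0.43, or -0.26 and -0.25 with the GC trend removed. *Dhcr7*, the reductase of the last step, averaged 22.6 ± 0.078 FPKM in NaBu and 27.3 ± 0.078 in control, a log2 fold change of -0.37. *Fdft1*, the squalene synthase at the branch point, fell with a log2 fold change of -0.48. It shares 774 exonic bases, 18.3% of its exonic length, with *Ctsb* on the opposite strand, and nothing used here states whether counting kept the strand. On the opposite strand, exonic bases are also shared by *Scap* with *5830462I19Rik* (13.2%) and *Hmgcs1* with *Gm48342* (12.1%). On the same strand, where stranded counting would not separate the genes, they are shared by *Fdps* with *Gm43738* (26.7%) and *Tm7sf2* with *Vps51* (12.1%).

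*Tm7sf2*, a sterol reductase whose reaction the lamin B receptor also carries out, was the member of this arm that rose, at an FPKM of 6.61 and 6.54 in NaBu, against 4.76 and 4.32 in control. In log2 this was 0.44 ± 0.12 (SE, edgeR adjusted p = 0.00907). The call was lost without control 2 (adjusted p = 0.0522), without NaBu 1 (adjusted p = 0.0532) and with DESeq2 (adjusted p = 0.114). *Hsd17b7*, a ketosteroid reductase, was not called, with an FPKM of 7.13 and 7.40 in NaBu, against 7.17 and 7.30 in control, and a 95% interval of its log2 fold change from -0.26 to 0.08. Its estimate was -0.09, or 0.11 with the GC trend removed. Summed over the 19 enzymes, the FPKM was 540.1 and 539.7 in NaBu, against 771 and 778 in control, and the sums of the mevalonate arm and of the later arm came to 0.683 and 0.716 of their control means.

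**Figure D2:**
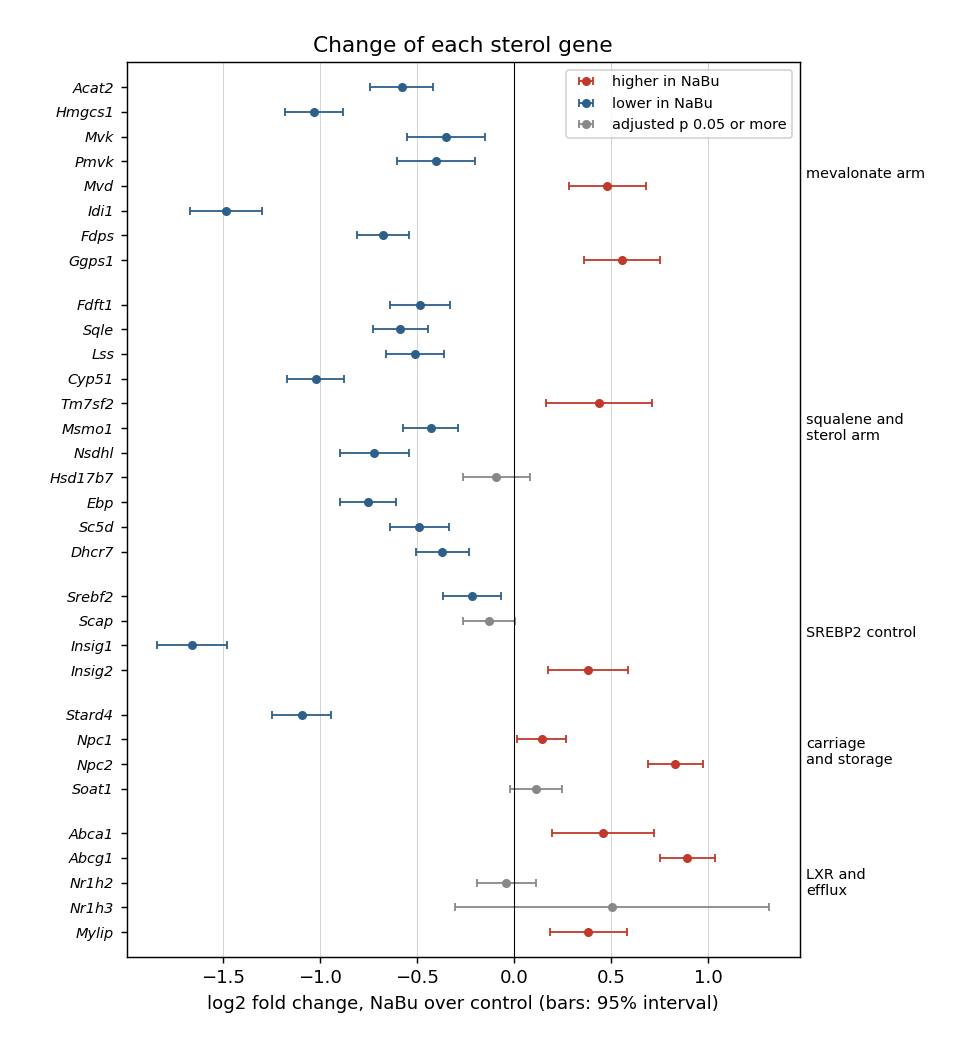
Log2 fold change of each member, NaBu over control, with its 95% interval from edgeR, by role. *Insig1* and *Idi1* lie farthest to the left at -1.66 and -1.49, and *Abcg1* and *Npc2* farthest to the right at 0.89 and 0.83.

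Among the genes that control SREBP2, *Insig1* had the largest fall of the 32 members. *Insig1* (gene 231070, chromosome 5, 28071412 to 28078662), which retains SCAP and is itself a known SREBP2 target, had an FPKM of 8.65 and 9.76 in NaBu, against 26.6 and 27.8 in control. This 3.16-fold fall was -1.66 ± 0.08 in log2 (SE, edgeR adjusted p = 3.9e-08). *Insig2*, its homologue, is not known as an SREBP2 target. It was higher, at an FPKM of 10.02 and 11.03 in NaBu, against 8.06 and 7.19 in control. The difference was 0.38 ± 0.09 in log2 (SE), and its edgeR adjusted p was 0.00372, or 0.0574 without NaBu 2. *Insig1* was thus the more abundant of the pair in both controls and *Insig2* in both NaBu libraries. The ratio of the FPKM of *Insig1* to that of *Insig2* was 0.863 and 0.885 in NaBu, against 3.30 and 3.86 in control.

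*Srebf2*, the gene of SREBP2 itself, was abundant in each library, at an FPKM of 124 and 126 in NaBu, against 143 and 130 in control. Its log2 fold change of -0.22 ± 0.07 (SE, edgeR adjusted p = 0.0143) passed the test but lost it on library totals (-0.12, adjusted p = 0.133) and without NaBu 1 or NaBu 2 (adjusted p = 0.145 and 0.123). With the GC trend removed it was -0.58 (adjusted p = 2.03e-07). *Scap*, the escort of SREBP2, had an FPKM of 31.4 and 31.2 in NaBu, against 33.0 and 31.0 in control, and the groups overlapped. It did not pass (log2 fold change -0.13, edgeR adjusted p = 0.0786), but was called lower without control 2 (-0.18, adjusted p = 0.0156) and with the GC trend removed (-0.58, adjusted p = 1.63e-07). *Scap* and *Srebf2* have a GC content of 59.1% and 57.9%.

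**Figure D3:**
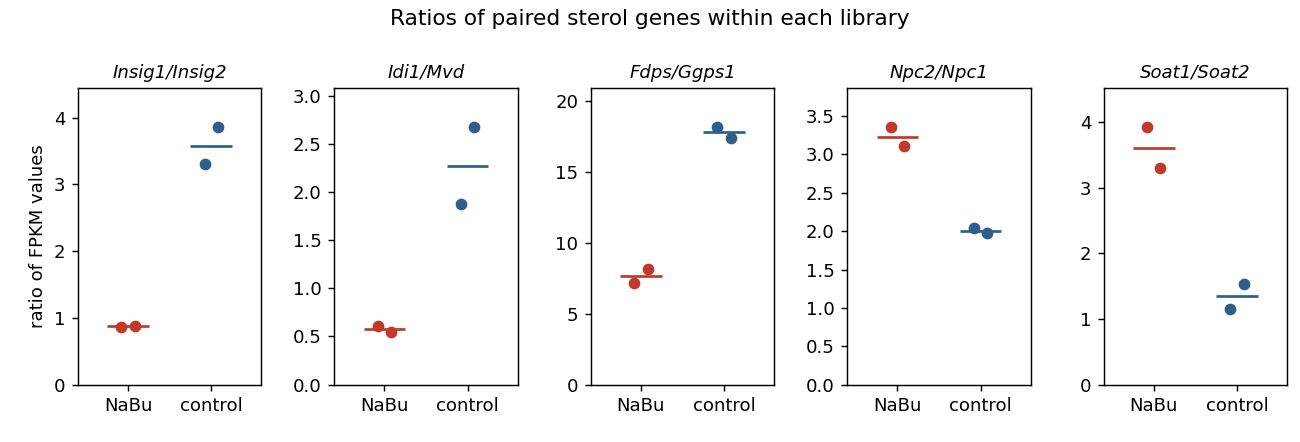
Ratio of the FPKM of paired genes within each library, with NaBu left and control right in each panel and lines at the group means. *Insig1* to *Insig2*, *Idi1* to *Mvd* and *Fdps* to *Ggps1* are lower in both NaBu libraries than in either control, and *Npc2* to *Npc1* and *Soat1* to *Soat2* are higher.

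Genes of sterol carriage and storage did not move together. *Stard4* (gene 170459, chromosome 18, 33199138 to 33213862), a soluble sterol carrier and known SREBP2 target, had an FPKM of 18.8 and 20.4 in NaBu, against 38.0 and 40.3 in control. Its fall of 2.14-fold was -1.10 ± 0.07 in log2 (SE, edgeR adjusted p = 2.15e-07). *Npc2* (gene 67963, chromosome 12, 84754559 to 84773112), which binds cholesterol in the lysosome and passes it to NPC1, had an FPKM of 126 and 118 in NaBu, against 66.0 and 62.4 in control. Its rise of 1.78-fold was 0.83 ± 0.06 in log2 (SE, edgeR adjusted p = 1.04e-06).

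*Npc1*, the lysosomal membrane partner of NPC2, rose far less, at 37.5 and 38.1 FPKM in NaBu, against 32.4 and 31.6 in control. Its log2 fold change of 0.14 stood at the threshold (edgeR adjusted p = 0.0496) and did not pass with the replicate number as a block (adjusted p = 0.113), with DESeq2 (adjusted p = 0.0985), or without control 2, NaBu 1 or NaBu 2 (adjusted p = 0.07, 0.217 and 0.292). With the GC trend removed it was 0.29, and on library totals 0.24. *Soat1*, which esterifies cholesterol for storage, had an FPKM of 16.4 and 16.3 in NaBu, against 14.1 and 14.2 in control, and did not pass (log2 fold change 0.11, adjusted p = 0.126). It was called higher on library totals (0.21, adjusted p = 0.0107) and with the GC trend removed (0.31, adjusted p = 0.000131). A minimum of 5 CPM in 2 libraries gave the same call (0.17, edgeR adjusted p = 0.0252), as did each limma fit (0.20 to 0.21). The related enzyme gene *Soat2*, named after its values were seen, had an FPKM of 4.17 and 4.94 in NaBu, against 12.2 and 9.25 in control, a log2 fold change of -1.33 (edgeR adjusted p = 1.39e-05).

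On the LXR and efflux side, 3 of 5 genes were higher and none was lower, against 34.5% and 34.1% of all tested genes. Removal of the GC trend left 3 higher and 1 lower. *Abcg1* (gene 11307, chromosome 17, 31057694 to 31117984), which moves cholesterol to lipoprotein particles, had an FPKM of 17.9 and 18.0 in NaBu, against 8.78 and 9.29 in control. It rose 1.86-fold, more than any other member, or 0.89 ± 0.06 in log2 (SE, edgeR adjusted p = 5.64e-07). *Abca1* (gene 11303, chromosome 4, 53030789 to 53159988), the pump that loads apolipoproteins, was low in each library, at an FPKM of 1.03 and 0.98 in NaBu, against 0.68 and 0.69 in control. Its log2 fold change was 0.46 ± 0.12 (SE, edgeR adjusted p = 0.00553), and it was not called with DESeq2 (adjusted p = 0.0844). With limma on log2(FPKM + 1) without a filter the difference was 0.25. *Mylip* had an FPKM of 7.33 and 7.81 in NaBu, against 5.53 and 5.34 in control, or 0.38 ± 0.09 higher in log2 (SE, edgeR adjusted p = 0.00303).

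Of the receptors themselves, *Nr1h2*, encoding LXR beta, accounted for nearly all LXR transcript. Its FPKM was 59.5 and 60.2 in NaBu, against 61.0 and 54.2 in control, and the groups overlapped. The log2 fold change of -0.04 had a 95% interval from -0.19 to 0.11 (edgeR adjusted p = 0.617), and its sign was reversed on library totals (0.06) and without control 1 (0.04). With the GC trend removed *Nr1h2*, whose GC content of 60.6% is the highest of the members, was called lower (-0.60, adjusted p = 1.13e-07). *Nr1h3*, encoding LXR alpha, had 19 and 15 counts in NaBu, against 12 and 11 in control, and an FPKM of 0.53 or less. A change was not detectable at this depth, with a log2 interval from -0.30 to 1.31 (edgeR adjusted p = 0.24) around 0.50, or 0.24 with the GC trend removed.

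Macrophages are rich in *Abca1*, *Abcg1* and *Nr1h3*, so markers of myeloid and dendritic cells are given beside these genes. Of 18 listed markers, 11 had a value, and the other 7, *Csf1r* and *Lyz2* among them, were not analysed here. The FPKM summed over the 11 was 40.6 and 38.5 in NaBu, against 16.8 and 15.2 in control. Of the 6 that were tested, 4 were higher and 2 lower (*Xcr1* and *Csf3r*), against 34.5% and 34.1% of all tested genes. The higher ones were *Cd68* (28.4 and 27.1 FPKM in NaBu, against 11.4 and 9.59 in control), *Itgam* (4.83 and 3.79 in NaBu, against 0.45 and 0.45 in control), *Itgax* (4.24 and 4.66 in NaBu, against 2.24 and 2.42 in control) and *Mpeg1* (1.96 and 1.86 in NaBu, against 0.20 and 0.39 in control). The 5 that were not tested, *Adgre1*, *Cd14*, *Fcgr1*, *Mertk* and *Siglec1*, stood at an FPKM of 0.21 or less in each library. Of 5 tested stromal and erythroid markers 3 were higher and 1 lower, and of 3 tested CD4 T and NK cell markers 1 and 1. Of 2 tested B cell markers, 1 was higher and 1 lower. The part of other cells in the *Abcg1* rise was not tested.

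**Figure D4:**
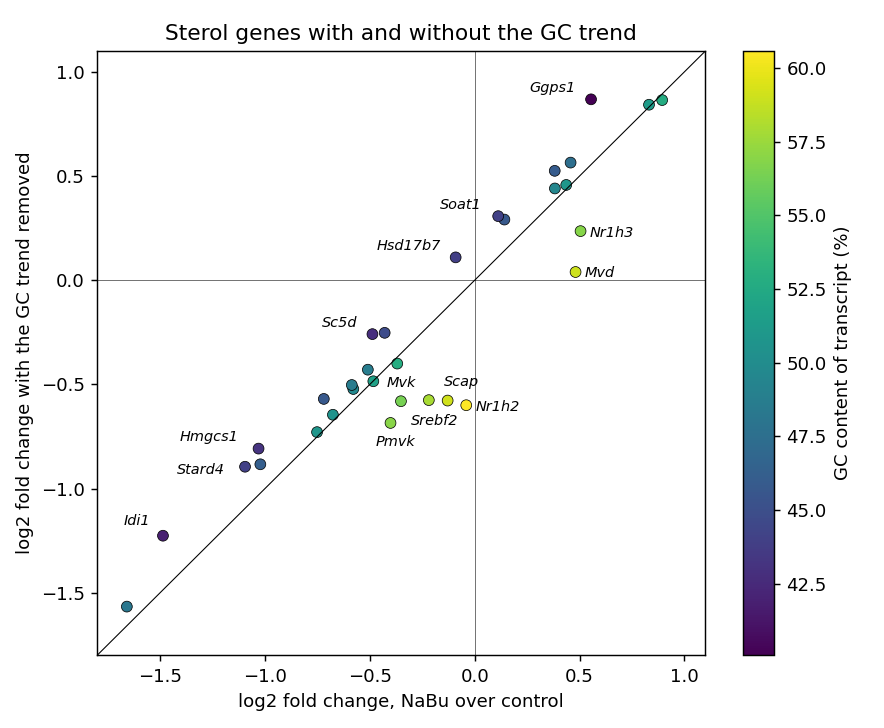
Log2 fold change of each member, NaBu over control, on the TMM scale (horizontal) and with the GC trend removed (vertical), coloured by the GC content of the transcript. The line marks equal values. *Nr1h2*, *Scap*, *Srebf2* and *Mvd*, at 57.9% to 60.6% GC, lie below it, and *Ggps1* at 40.1% lies above it.

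Genes of the pathway outside the members came from 5 further lists. Of 22 genes of lipoprotein uptake and sterol transport, 8 were lower and 7 higher, shares near the 34.1% and 34.5% of all tested genes, with a median log2 fold change of 0.05. On library totals 6 were lower and 8 higher, where the counts over all genes were 3720 lower and 5175 higher. *Tmem97*, the sigma-2 receptor gene and a binding partner of NPC1, fell 2.52-fold to an FPKM of 18.4 and 19.9 in NaBu, against 45.3 and 44.9 in control. *Lrp1*, a large endocytic receptor, was at 1.68 and 1.93 in NaBu, against 0.11 and 0.14 in control, a log2 fold change of 3.74 ± 0.15 (SE, edgeR adjusted p = 1.13e-08). Its control level was near 0, and limma gave 1.32 on log2(FPKM + 1) and 3.08 on log2(FPKM + 0.1). *Lipa*, the lysosomal lipase that frees cholesterol from its esters, was named after its values were seen and had an FPKM of 34.5 and 31.7 in NaBu, against 12.6 and 13.7 in control.

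Of 14 tested partners and targets of LXR and oxysterol enzymes, of 18 listed, 3 were lower and 5 higher, or 2 and 6 on library totals and 4 and 4 with the GC trend removed. The share that was higher was close to the 34.5% of all tested genes. *Pltp*, a phospholipid transfer protein gene and known LXR target, rose 4.66-fold to an FPKM of 5.48 and 5.23 in NaBu, against 1.05 and 1.07 in control. *Rxra*, a partner receptor of LXR, rose 1.63-fold to 9.0 and 9.18 in NaBu, against 5.25 and 5.21 in control, and its log2 change of 0.71 came to 0.42 with the GC trend removed.

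Of 15 genes of SREBP processing and sterol-regulated degradation, 7 were lower and none was higher, or 5 and 4 on library totals and 6 and 3 with the GC trend removed, with a median of -0.20. Over all tested genes 34.1% were lower and 34.5% higher. None of them was shown to exceed the fold of 1.5 by glmTreat. *Erlin2*, of a membrane complex in sterol-regulated protein degradation, fell 1.52-fold and *Rnf145*, a sterol-sensitive ubiquitin ligase, 1.41-fold. The log2 change of *Rnf145* was -0.49, or -0.31 with the GC trend removed. Of 5 tested sterol synthesis partners, of 7 listed symbols, 2 were lower and 1 higher, or 3 and 0 with the GC trend removed. *0610007P14Rik* fell 1.86-fold, to an FPKM of 28.3 and 28.6 in NaBu, against 47.1 and 51.8 in control. *Cyb5b*, a cytochrome gene, fell 1.27-fold, or -0.35 in log2 and -0.21 with the GC trend removed. *Por*, the reductase that feeds electrons to CYP51 and SQLE, rose 1.34-fold, by 0.42 in log2, which came to 0.03 (adjusted p = 0.669) with the GC trend removed.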

How the data were processed

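RNA-seq of 2 NaBu and 2 control libraries was used, with groups taken from the sample titles. The submitters' processing notes name Bowtie2, RSEM and the build mm10. Tool versions, annotation release and strandedness were not given in the sources used here. The deposited files hold expected counts, which RSEM estimates and which need not be whole, and FPKM values scaled to transcript length and library total, per the file headers. FPKM was used as deposited for levels. Expected counts were rounded and tested over all 12943 genes kept by filterByExpr, with edgeR 4.0.16 in R 4.3.3, TMM factors (1.035 and 1.033 for NaBu 1 and 2, 0.968 and 0.9658 for control 1 and 2), no covariates and Benjamini-Hochberg adjustment. Each standard error was obtained as |log2 fold change| over the root of the F statistic. The procedure was run on simulated data in which few genes changed. That run did not check the scaling where most genes are called, as in these data. An exact permutation test of 2 libraries against 2 has 0.333 as its smallest possible two-sided p and was not run. In fits without 1 library, the lone sample of a group is assumed to vary like the other group.

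The members, lists and tests were chosen with earlier results of these data known. All members may be named, and from each other list the 3 called genes that moved farthest, given a mean of at least 1 FPKM in the higher group. Some genes that this rule selects are not reported here. *Soat2* and *Lipa* were named after their values were seen. Coordinates come from the RefSeq table of GRCm38.p6, where 17518 of 17559 gene identifiers were found. The settings varied were median-of-ratios factors, scaling by totals, no filter, a minimum of 5 CPM in 2 libraries, DESeq2 1.42.0, limma 3.58.1 on log2(FPKM + 1), with and without a filter at 1 FPKM in 2 libraries, and on log2(FPKM + 0.1), glmTreat against 1.5-fold, a replicate block, and omission of each library in turn. Removal of the GC trend, by a loess offset per library on the GC content of the longest GENCODE M21 transcript, was added after seeing the data.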

Additional observations from a re-analysis of the deposited data

How the results depend on the processing

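Of 32 members, 8 kept direction and side of the threshold in all 15 alternatives. *Nr1h3* did so in the 12 that gave it a value, and median-of-ratios factors changed no member's call. The 8 are the members called against a fold of 1.5 (glmTreat), where 19 others lost their call. Every other alternative weakened fewer calls. Against a fold of 1.5 (glmTreat), 6 members were lower and 2 higher, with 4 and 0 among the 19 enzymes. The mevalonate arm and the squalene and sterol arm each held 2 and 0. SREBP2 control held 1 and 0, carriage and storage 1 and 1, and the LXR and efflux side 0 and 1. In the other lists glmTreat called 0 lower in SREBP processing and 2 lower and 1 higher in isoprenoid use. It called 5 and 4 in lipoprotein uptake and transport, 0 and 2 among LXR partners and 1 and 0 among sterol synthesis partners. Over all genes it called 1565 lower and 2214 higher. The null itself is stricter there. With the GC trend removed, 1 mevalonate enzyme was higher, 1 LXR and efflux gene lower, 3 SREBP processing genes and 6 isoprenoid genes higher and 0 sterol synthesis partners higher, and *Hsd17b7* came to 0.11. With DESeq2, 0 genes of the squalene and sterol arm and 1 of carriage and storage were higher and 3 isoprenoid genes lower.

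On library totals, 1 gene of SREBP2 control was lower, 4 SREBP processing genes and 5 isoprenoid genes were higher, *Hsd17b7* came to 0.0061 and *Nr1h2* to 0.057. With a minimum of 5 CPM these were 1, 1 and 5, and *Nr1h2* was 0.018. In each limma fit 1 gene of SREBP2 control was lower, 1 SREBP processing gene higher and 3 isoprenoid genes lower, with *Hsd17b7* at 0.0051 or 0.0057 and *Nr1h2* at 0.058 or 0.059. With no filter, 1 carriage and storage gene was higher. Same-numbered libraries did not deviate together (correlation -0.03), and with the replicate block 1 carriage and storage gene was higher, *Npc1* losing its call, while no other member changed. Leaving out 1 library gave 0 to 1 higher in the squalene and sterol arm, 1 to 3 lower and 0 to 1 higher in SREBP2 control, 1 to 2 higher in carriage and storage, 0 to 1 higher in SREBP processing, 3 to 7 lower in isoprenoid use, and *Nr1h2* from -0.13 to 0.042, the higher value without control 1. Except where stated, the cause was not tested. *Nr1h3*, *Abca1* and *Tm7sf2* had the fewest counts of the members, and the part of depth in their results was not tested.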

Other observations

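Genes that use the isoprenoid products of the mevalonate arm were counted as a further list. Of 15 listed and tested genes of prenyl transfer, dolichol and ubiquinone synthesis, 6 were lower and 3 higher in NaBu by edgeR, or 4 and 5 on library totals and 5 and 6 with the GC trend removed, with a median log2 fold change of -0.13. Over all tested genes 34.1% were lower and 34.5% higher. *Srd5a3*, a reductase of dolichol synthesis, fell 2.19-fold, at an FPKM of 7.65 and 7.83 in NaBu, against 15.7 and 16.1 in control. *Pdss1*, a subunit of the enzyme that builds the ubiquinone tail, fell 1.85-fold, at 3.15 and 3.44 in NaBu, against 5.80 and 5.63 in control, with a log2 fold change of -0.89 that came to -0.55 with the GC trend removed. *Rabggta*, a subunit of the transferase that puts geranylgeranyl groups on Rab proteins, rose 1.91-fold, at 10.6 and 10.9 in NaBu, against 5.58 and 4.99 in control.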
